A study of Mus musculus with 6 samples.

Results

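Collagen chains are the subject here: the 44 genes, of 34724 in the deposited table, whose symbol is Col followed by a type number, the letter a and a chain number. Polyadenylated RNA was read directly on a nanopore instrument in 6 libraries, 3 of the mouse cell line 2H-11 and 3 of SVEC4-10. By its label 2H-11 is a line of tumor endothelial cells, and SVEC4-10 stands for normal ones. Both lines were taken from the axillary lymph node of adult C3H/HeJ mice and were transformed with SV40, and no treatment is given for either. With 1 line behind each label, tumor or normal status and every other way in which 2H-11 and SVEC4-10 differ cannot be told apart. Nothing in the labels ties the libraries to separate cultures, and p-values therefore measure only the spread between libraries, which may be technical.

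A collagen molecule is a triple helix of chains wound around each other, and the chains are made from separate genes. Some types are homotrimers of a single chain, whereas types I, IV, V, VI, IX and XI combine different chains, so a missing chain can leave its partners without a trimer. Fibrillar types form the banded fibres of connective tissue, type IV forms the network of basement membranes, type VI forms beaded filaments around cells, and the FACIT types decorate fibrils. Vessel walls are known for basement membrane types IV, XV and XVIII and, around larger vessels, for fibrillar types I and III.

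The libraries held between 3628400 and 16798666 counts, and SVEC4-10 replicate 3 was the largest. Levels are CPM, the reads of a gene per 1000000 counts of its library, and means are given ± SD (n = 3 libraries). A direct RNA read stands for 1 molecule, so CPM is not divided by transcript length; where chains are ranked or divided by each other, values per kilobase of the longest annotated transcript are given as well. All 10 endothelial markers examined (Pecam1, Cdh5, Kdr, Tek, Tie1, Vwf, Erg, Cldn5, Emcn and Esam) were under 1 CPM in every library, and 5 of them had no count. Of 8 fibroblast markers, 4 were higher in 2H-11 (Pdgfra, Pdgfrb, Thy1 and Postn), Dcn was lower, and Lum and Tcf21 had no count. Pdgfrb, Thy1 and Postn had no count in SVEC4-10. The summed level of the 8 was 88.4 to 98.4 CPM in 2H-11 and 258 to 364 CPM in SVEC4-10. In SVEC4-10 that sum was almost all Dcn, at 361, 304 and 257 CPM there against 12.5, 16.8 and 12.2 CPM in 2H-11. Of 7 mesothelial markers, 5 were lower in 2H-11 and Krt19 was higher, and the sum was 58.5 to 72.4 against 3165 to 4071 CPM. Of 6 smooth muscle and pericyte markers, 3 of the 4 tested were higher in 2H-11 (Cnn1, Cspg4 and Des) and 0 lower, and Rgs5 had no count; the sum, 748 to 1203 against 814 to 1374 CPM, was mostly Acta2, which did not pass. In the test given below, 20.1% of all genes tested were called higher in 2H-11 and 16.2% lower. For genes with Ensembl identifiers, as the markers have, these shares were 13.0% and 18.8%. The marker counts are a description, because a gene near 0 in a line has enough counts to be tested only through the other line. The part of such cell states in the collagen results was not tested, and in bulk RNA fewer cells of a type and less RNA per cell cannot be told apart.

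Of the 44 chains, 19 had enough counts to be tested, 14 had some counts but too few, and 11 had no count in any library. Of the 19 tested, 10 were higher in 2H-11, 6 were lower and 3 did not pass the threshold (quasi-likelihood test in edgeR, with p-values Benjamini-Hochberg adjusted over 13187 genes and a threshold of 0.05). Among all genes tested, 20.1% were called higher and 16.2% lower; for genes with Ensembl identifiers, as all chains have, the shares were 13.0% and 18.8%. The median log2 fold change of the tested chains was 0.78, beside 0.00 over all genes tested and -0.10 over those with Ensembl identifiers. These counts are a description, because a chain near 0 in a line passes the count filter only through the other line. Of the tested chains, 5 had a mean under 1 CPM in SVEC4-10 and 0 had one in 2H-11. In 15 of the 19 the libraries of the lines did not overlap, which held for 46.8% of all genes tested and for 43.4% of those with Ensembl identifiers.

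**Figure D1:**
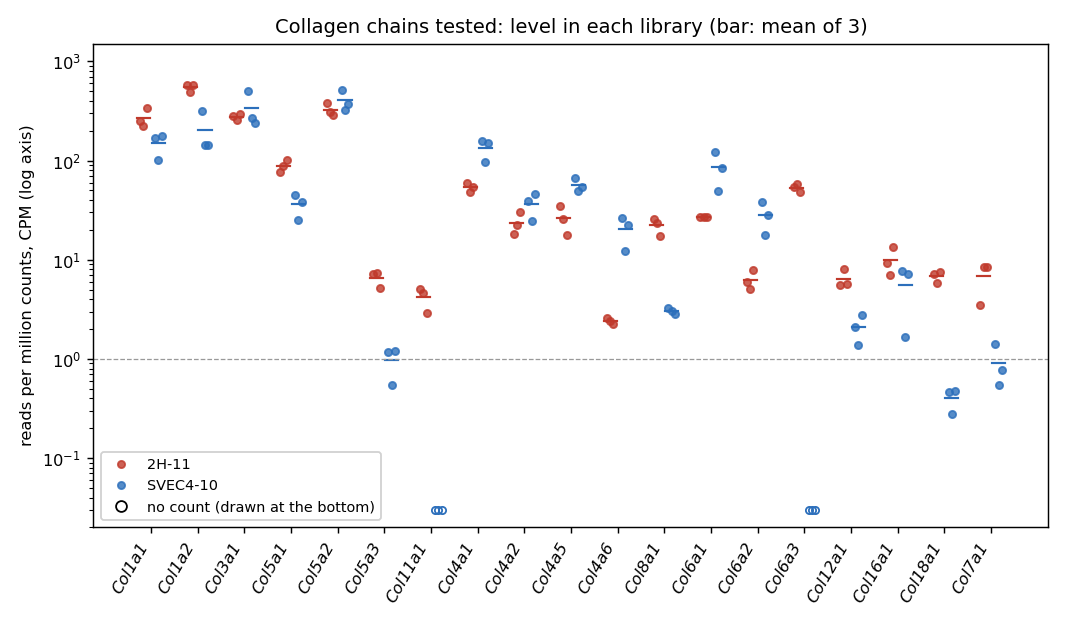
Level of each tested collagen chain in every library, as CPM on a log axis, for 2H-11 (red) and SVEC4-10 (blue); short bars are means of 3 libraries, and open circles at the bottom are libraries with no count. The dashed line marks 1 CPM. Col6a3 and Col11a1 had no count in any SVEC4-10 library, and the 2 groups of points are apart for 15 of the 19 chains.

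By class, of 7 tested fibrillar chains 5 were higher in 2H-11 and 0 lower. The other 2 had negative log2 fold changes that did not pass. Of 4 tested type IV chains 0 were higher and 4 lower, but Col4a2 overlapped and lost its call in 8 of 17 alternative fits. The shares over all genes tested were 20.1% higher and 16.2% lower, and over those with Ensembl identifiers 13.0% and 18.8%. Counts by class are a description, and Col11a1 and Col6a3 passed the count filter only through 2H-11. Col27a1 and Col11a2 of the fibrillar class and Col8a2 of the hexagonal class, with more reads in SVEC4-10, had too few counts to be tested. Type VI was split, with Col6a3 higher and both Col6a1 and Col6a2 lower. The tested chain of each of types VII, VIII and XVIII, and 1 of 2 tested FACIT chains, were higher. Summed over all chains, the level averaged 1768 ± 122 CPM over the 2H-11 libraries and 1514 ± 463 CPM over those of SVEC4-10, and the libraries overlapped (1826, 1628 and 1850 against 2028, 1131 and 1383 CPM). The libraries of SVEC4-10 differed from each other more than those of 2H-11: of 17 tested chains with counts in that line, 12 were highest in replicate 1 and 14 were lowest in replicate 2.

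**Figure D2:**
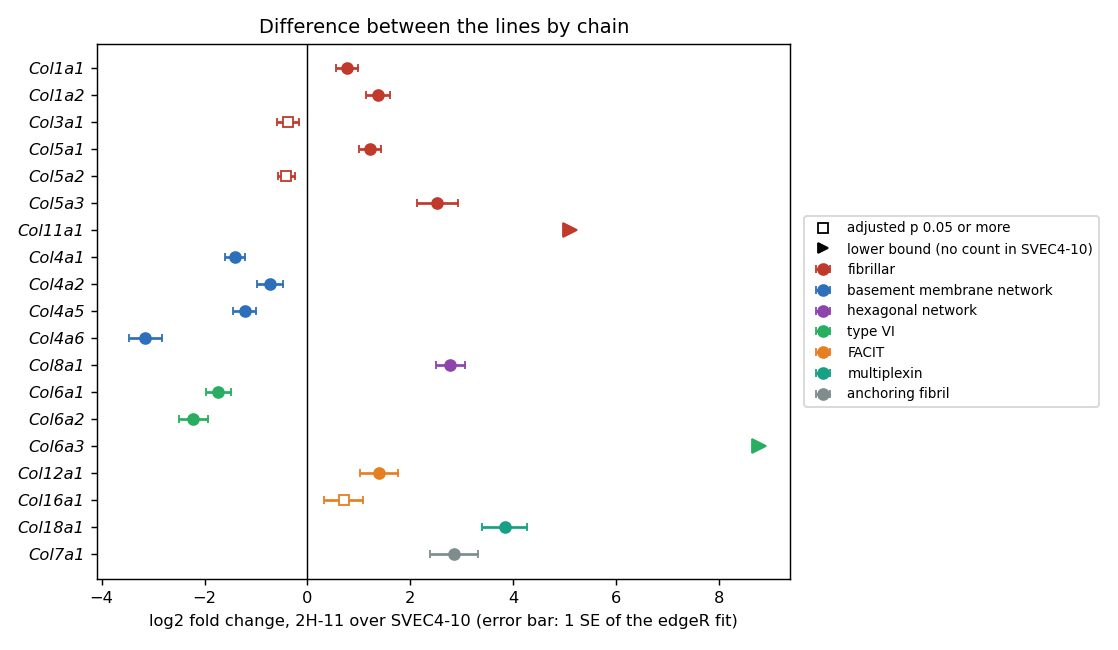
Log2 fold change of each tested chain, 2H-11 over SVEC4-10, coloured by class; error bars are 1 SE of the edgeR fit, open squares did not pass an adjusted p of 0.05, and triangles are lower bounds for chains with no count in SVEC4-10. The 4 type IV chains lie to the left of 0, and the 5 fibrillar chains that passed lie to the right.

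The make-up of the collagen reads differed accordingly. Fibrillar chains took 86.1%, 84.9% and 86.9% of the collagen reads in the 2H-11 libraries, and 76.7%, 76.9% and 70.8% in those of SVEC4-10. Type IV chains took 6.26%, 6.07% and 5.66% against 14.3%, 16.3% and 19.7%. No library of a line overlapped with the other line in either share, and with reads divided by transcript length the ranges were 86.1% to 87.8% against 69.5% to 76.1% for fibrillar chains and 5.11% to 5.65% against 12.7% to 17.8% for type IV chains. Type VI chains took 4.47% to 5.60% in 2H-11 and 5.92% to 8.14% in SVEC4-10. These shares sum over chains and are given without a test.

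**Figure D3:**
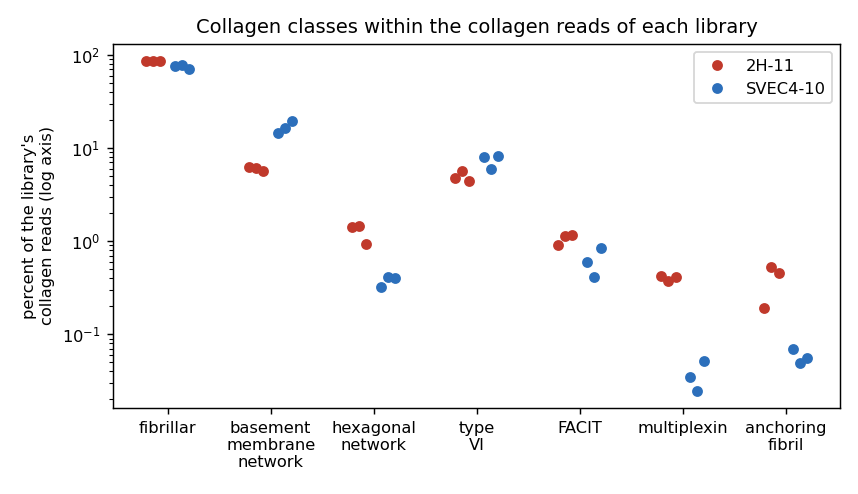
Share of each collagen class in the collagen reads of each library, in percent on a log axis, 1 point per library. Fibrillar chains make up 70.8% to 86.9% in all 6 libraries, and type IV chains stand at 5.66% to 6.26% in 2H-11 and 14.3% to 19.7% in SVEC4-10.

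Type I collagen, the main fibril-forming collagen of skin, bone and tendon, was higher in 2H-11 in both of its chains. Col1a2 (ENSMUSG00000029661, chromosome 6, 4504814 to 4541544 in GRCm38), the α2 chain, was at 574, 493 and 580.0 CPM in 2H-11 and at 316, 144 and 144 CPM in SVEC4-10. All 2H-11 libraries lay above all SVEC4-10 libraries, among which replicate 1 was high. The fold change was 2.60 (log2 1.38, SE 0.23, adjusted p = 0.000106). Col1a1 (ENSMUSG00000001506, chromosome 11, 94936224 to 94953042), the α1 chain, was at 249, 225 and 340 CPM against 169, 102 and 179 CPM. The groups did not overlap, and the fold change was 1.71 (log2 0.78, SE 0.21, adjusted p = 0.00728). Without SVEC4-10 replicate 2, its lowest library, Col1a1 no longer passed (log2 0.53, adjusted p = 0.0548).

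Types III and V gave a mixed picture. Col3a1, the chain of the homotrimeric type III that accompanies type I in stretchable tissue, was at 281, 255 and 293 CPM in 2H-11 and 507, 271 and 242 CPM in SVEC4-10. The lines overlapped and the difference did not pass (log2 fold change -0.37, SE 0.21, adjusted p = 0.184), except without SVEC4-10 replicate 3 (log2 -0.61, adjusted p = 0.0416). Col5a2, the α2 chain of type V, which sets the diameter of type I fibrils, was at 378, 308 and 286 CPM against 516, 325 and 372 CPM. It overlapped too and did not pass (log2 -0.41, SE 0.17, adjusted p = 0.0766), but did without 2H-11 replicate 1 (log2 -0.54, adjusted p = 0.035) or without SVEC4-10 replicate 2 (log2 -0.56, adjusted p = 0.0258). Col3a1 and Col5a2 are neighbours on chromosome 1, with their 3′ ends facing each other across 24614 bases.

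The α1 and α3 chains of type V rose together in 2H-11. Col5a1 (ENSMUSG00000026837, chromosome 2, 27886425 to 28039514) was at 76.7, 88.9 and 101 CPM in 2H-11 and 44.6, 25.4 and 38.3 CPM in SVEC4-10. The groups were apart, with a fold change of 2.31 (log2 1.21, SE 0.21, adjusted p = 0.000176). Col5a3, a chain of limited distribution that can replace an α1 chain of type V, was at 7.26, 7.31 and 5.15 CPM against 1.17, 0.551 and 1.19 CPM. Every 2H-11 library was above every SVEC4-10 library (log2 fold change 2.53, SE 0.40, adjusted p = 5.86e-05).

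Col11a1, the α1 chain of type XI, a minor fibrillar collagen best known from cartilage, had counts in 2H-11 and none in SVEC4-10. It was at 5.02, 4.63 and 2.92 CPM in 2H-11 (63 reads) and had no count in SVEC4-10, where 0 counts allow up to 0.121 CPM over the line. This puts it at least 34.5-fold above SVEC4-10 (adjusted p = 1.95e-06), and at least 11.04-fold without SVEC4-10 replicate 3, which held most of that line's depth. Its usual partners were nearly uncounted in 2H-11: Col11a2 had 2 reads there and 21 in SVEC4-10, and Col2a1, whose product also serves as the α3 chain of type XI, had 0 and 2. Of 7 cartilage and bone markers, Acan, Hapln1, Sp7 and Bglap had no count, and 6 were under 1 CPM in every library. The exception was Sox9, with 2, 6 and 5 reads in 2H-11 and none in SVEC4-10, too few for the test. The sum of the 7 was 0.372 to 1.46 CPM in 2H-11, all of it Sox9, and 0.00 to 0.234 CPM in SVEC4-10. Col24a1 had no count, and Col27a1 had 3 reads in 2H-11 and 32 in the other line, which is 6.61-fold lower per count of library (95% counting interval 2.07 to 33.7). That ratio was 4.29 when replicate 1 of 2H-11 was left out and 12.3 when its replicate 3 was.

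The most abundant chain differed between the lines. In CPM, Col1a2 ranked first in all 3 libraries of 2H-11. In all 3 of SVEC4-10, Col5a2 ranked first in CPM and Col3a1 second. Per kilobase, Col1a2 was again first in all 3 libraries of 2H-11, at 107, 92.2 and 108 CPM per kb. The first 2 places in SVEC4-10 were again held by Col3a1 (91.2, 48.7 and 43.5 CPM per kb) and Col5a2 (77.8, 49.1 and 56.2 CPM per kb). Their order changed between libraries only when divided by length. Col1a2 stood at 59.1, 26.95 and 26.93 CPM per kb there.

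Type IV collagen, the scaffold of basement membranes, was lower in 2H-11 in all 4 chains that could be tested. Its 6 genes lie in 3 head-to-head pairs that start next to each other on opposite strands. Col4a1 (ENSMUSG00000031502, chromosome 8, 11198423 to 11312826) and Col4a2 (ENSMUSG00000031503, chromosome 8, 11312805 to 11449287) make the widespread α1α1α2 trimer, and their annotated 5′ ends overlap by 22 bases. Col4a1 was at 59.0, 48.2 and 54.2 CPM in 2H-11 and 158, 97.8 and 150.3 CPM in SVEC4-10. All 2H-11 libraries were below all SVEC4-10 libraries (log2 fold change -1.42, SE 0.20, adjusted p = 1.33e-05). Col4a2 was at 18.05, 22.2 and 30.4 CPM against 39.3, 24.5 and 45.9 CPM. Its groups overlapped, 2H-11 replicate 3 lying above SVEC4-10 replicate 2, and the call was a narrow one (log2 -0.73, SE 0.25, adjusted p = 0.0311). It was lost in 8 of 17 alternative fits, among them those that left out replicate 1 (adjusted p = 0.104) or replicate 2 (adjusted p = 0.0905) of 2H-11, or replicate 3 of SVEC4-10 (adjusted p = 0.139). Because these genes overlap on opposite strands and use of strand in counting is not given, reads over the 22 bases cannot be assigned with certainty.

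The pair on the X chromosome was lower as well, and unequally so. Col4a5 (ENSMUSG00000031274, chromosome X, 141475385 to 141689234), the α5 chain, was at 34.6, 26.1 and 17.9 CPM in 2H-11 and 67.1, 49.9 and 54.0 CPM in SVEC4-10, where all libraries were higher (log2 -1.22, SE 0.23, adjusted p = 0.000346). Col4a6 (ENSMUSG00000031273, chromosome X, 141165403 to 141474076), the α6 chain, was at 2.60, 2.44 and 2.23 CPM against 26.4, 12.1 and 22.2 CPM. It was 8.87-fold lower (log2 -3.15, SE 0.33, adjusted p = 4.15e-07), and for neither chain did the lines overlap. The 2 genes start 1308 bases apart. The stretches before each start are shown because the genes share this interval and both fell, with matches to the motifs searched in capitals (RefSeq, GRCm38.p6, each 5′ to 3′ on the strand of its gene and without annotated exons).
Col4a5, chrX:141475169-141475384, plus strand: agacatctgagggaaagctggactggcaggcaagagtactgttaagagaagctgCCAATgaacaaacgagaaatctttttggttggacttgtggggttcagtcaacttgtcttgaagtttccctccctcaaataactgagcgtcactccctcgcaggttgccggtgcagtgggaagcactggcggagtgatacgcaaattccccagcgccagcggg
Col4a6, chrX:141474077-141474326, minus strand: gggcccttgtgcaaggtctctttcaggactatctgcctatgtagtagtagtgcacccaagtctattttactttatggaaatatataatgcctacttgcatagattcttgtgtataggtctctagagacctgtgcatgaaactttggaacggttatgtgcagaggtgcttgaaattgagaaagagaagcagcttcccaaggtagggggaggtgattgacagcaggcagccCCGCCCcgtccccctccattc
The remaining pair, Col4a3 and Col4a4, whose α3 and α4 chains serve the kidney filter together with α5, had 0 reads in 2H-11 and 1 and 2 reads in SVEC4-10.

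In type VI collagen, tested partner chains went opposite ways. A type VI filament needs α1, α2 and a larger chain, usually α3, in equal number. Col6a3 (ENSMUSG00000048126, chromosome 1, 90765923 to 90843971), the α3 chain, was at 53.8, 58.7 and 47.7 CPM in 2H-11 (808 reads) and had no count in any SVEC4-10 library. Its level in 2H-11 was thus at least 439.7 times higher (adjusted p = 7.34e-11), and at least 140.7-fold without SVEC4-10 replicate 3. Col6a1 (ENSMUSG00000001119, chromosome 10, 76708792 to 76726168), the α1 chain, was at 26.8, 27.3 and 27.1 CPM against 122, 49.3 and 84.3 CPM. Its 3 2H-11 libraries were nearly equal and all below the widely spread SVEC4-10 libraries (log2 fold change -1.73, SE 0.25, adjusted p = 1.83e-05). Col6a2 (ENSMUSG00000020241, chromosome 10, 76595762 to 76623630), the α2 chain, was at 5.95, 5.12 and 7.90 CPM against 38.3, 17.6 and 28.3 CPM. It was apart in the same direction (log2 -2.22, SE 0.29, adjusted p = 6.72e-06). Col6a4, Col6a5 and Col6a6, whose chains can stand in for α3, had no count in any library. Over SVEC4-10 0 counts allow up to 0.121 CPM, so a lower level of Col6a3 or of these chains was not detectable.

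Col6a1 and Col6a2 lie on the same strand of chromosome 10, 85161 bases apart, while Col6a3 is on another chromosome. The sequences before their starts are shown because 2 of them belong to chains that fell and the other to the chain without counts in SVEC4-10; Col11a1, the other chain without counts there, is added.
Col6a1, chr10:76726169-76726294, minus strand: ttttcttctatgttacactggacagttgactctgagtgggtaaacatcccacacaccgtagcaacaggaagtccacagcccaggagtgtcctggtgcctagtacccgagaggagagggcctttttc
Col6a2, chr10:76623631-76623880, minus strand: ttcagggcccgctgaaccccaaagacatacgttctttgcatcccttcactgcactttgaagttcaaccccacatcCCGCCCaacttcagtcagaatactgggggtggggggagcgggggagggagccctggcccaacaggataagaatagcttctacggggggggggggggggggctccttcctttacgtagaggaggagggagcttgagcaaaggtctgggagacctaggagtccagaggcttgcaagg
Col6a3, chr1:90843972-90844221, minus strand: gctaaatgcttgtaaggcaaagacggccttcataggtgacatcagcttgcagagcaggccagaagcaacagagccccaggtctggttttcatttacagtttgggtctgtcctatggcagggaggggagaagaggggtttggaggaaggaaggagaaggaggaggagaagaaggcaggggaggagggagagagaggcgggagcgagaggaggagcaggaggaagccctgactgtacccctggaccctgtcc
Col11a1, chr3:114030290-114030539, plus strand: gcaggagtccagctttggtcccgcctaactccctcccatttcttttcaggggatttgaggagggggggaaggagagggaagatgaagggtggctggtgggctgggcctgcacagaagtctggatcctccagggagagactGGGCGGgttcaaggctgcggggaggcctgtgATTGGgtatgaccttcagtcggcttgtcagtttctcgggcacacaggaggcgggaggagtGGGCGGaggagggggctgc
Capitals mark the letters CCAAT (the box bound by NF-Y), GGGCGG (the GC box bound by Sp1) and TATAAA (the TATA box), each searched on both strands; none of these 3 overlapped another here. The printed stretches of Col6a1 (126 bases) and Col4a5 (216 bases) were cut before the first annotated exon base, and the other 4 have the full 250. Whole windows of 250 bases before a RefSeq start were found for 35 of the 44 chains, 38 windows in all. CCAAT was in 13 of the 38 (34.2%) and in 33.8% of all 32851 windows of that length, GGGCGG in 22 (57.9%) and in 32.7%, and TATAAA in 5 (13.2%) and in 12.4%. Of the 6 stretches printed, Col4a5 and Col11a1 held CCAAT, and Col4a6, Col6a2 and Col11a1 held GGGCGG. Col6a1 and Col6a3 held none of the 3, which says only that these letters are not in these stretches, that of Col6a1 being shorter than the windows behind the shares.

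Type VIII collagen, a short-chain collagen that builds hexagonal lattices under endothelium, had reads of its α1 chain in both lines and of its α2 chain almost entirely in SVEC4-10. Col8a1 (ENSMUSG00000068196, chromosome 16, 57624258 to 57754737), the α1 chain, was at 25.9, 23.6 and 17.3 CPM in 2H-11 and 3.27, 3.03 and 2.86 CPM in SVEC4-10. It was 6.88-fold higher without overlap (log2 2.78, SE 0.28, adjusted p = 3.26e-07). Col8a2, the α2 chain, had 1 read in 2H-11, in replicate 1, and 14, 6 and 45 reads in SVEC4-10. Col8a2 had too few counts for the main fit. By summed counts it was 40.3-fold lower in 2H-11 (95% counting interval 6.98 to 1615). It was at least 8.39-fold lower when replicate 1 of 2H-11, which held the read, was left out, and 24.9-fold when its replicate 3 was. It was called lower with no filter and with DESeq2. The fits without 2H-11 replicate 1, 2 or 3, or without SVEC4-10 replicate 2, also called it lower. Col10a1, the type X chain of growth plate cartilage, had 0 and 1 read.

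Chains of the other classes that could be tested were higher in 2H-11 or did not pass. Col18a1 (ENSMUSG00000001435, chromosome 10, 77052178 to 77166548), a multiplexin of vessel basement membranes from whose end endostatin is cut, was at 7.26, 5.85 and 7.55 CPM in 2H-11 and 0.468, 0.276 and 0.476 CPM in SVEC4-10. It was 14.3-fold higher (log2 3.84, SE 0.44, adjusted p = 1.55e-06), and the groups were far apart. Col15a1, the other multiplexin, had 3 and 5 reads. Col7a1, the chain of the anchoring fibrils that fasten skin epithelium, was at 3.53, 8.53 and 8.41 CPM against 1.40, 0.551 and 0.774 CPM (log2 2.85, SE 0.47, adjusted p = 9.8e-05). All 2H-11 libraries were above SVEC4-10, replicate 1 by the least.

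Among FACIT chains, Col12a1, which binds type I fibrils in tissue under load, was at 5.58, 8.04 and 5.66 CPM in 2H-11 and 2.10, 1.38 and 2.80 CPM in SVEC4-10, without overlap (log2 1.40, SE 0.36, adjusted p = 0.00552). Col16a1 was at 9.30, 7.06 and 13.6 CPM against 7.71, 1.65 and 7.26 CPM. It overlapped and did not pass (log2 0.70, SE 0.38, adjusted p = 0.167). Col14a1 had 4, 9 and 8 reads in 2H-11 against 1, 0 and 0, too few for the test, and a ratio of summed counts of 33.9 (95% counting interval 5.45 to 1402). Without SVEC4-10 replicate 1, which held the read, it was at least 9.78-fold higher, and without SVEC4-10 replicate 3 the ratio was 10.85 (1.75 to 448.6). Fits with no filter and with DESeq2 called Col14a1 higher. Col20a1 was at 0.744, 0.974 and 0.687 CPM against 1.64, 1.10 and 1.19 CPM. Of the type IX chains, Col9a1 and Col9a2 had no count and Col9a3 had 1 and 9 reads. Col22a1 had 0 and 2 reads, and Col19a1 had none.

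Of the 4 transmembrane collagens hardly any read was found at this depth. Col13a1, Col23a1 and Col25a1 had no count, and Col17a1, the hemidesmosome collagen of skin, had 1 read, in 2H-11. Col26a1 had no count and Col28a1 had 1 read, in 2H-11. A count of 0 over the whole of 2H-11 allows a level of up to 0.196 CPM, and over SVEC4-10 one of up to 0.121 CPM (counting error alone). Counts were found for 28 chains in 2H-11 and 29 in SVEC4-10, and for 26 and 27 after all libraries were thinned to the smallest.

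To ask which trimers each line had transcripts for, a chain was taken as present where all 3 libraries of the line had 1 CPM or more, and a trimer as complete where all its chains were present. Protein and assembly were not measured. By this rule 19 chains were present in 2H-11 and 16 in SVEC4-10, 14 of them in both. Of 36 trimers listed, 13 were complete in 2H-11 and 12 in SVEC4-10, and 9 were complete in both: type I as α1α1α2 and as α1 homotrimer, III, IV as α1α1α2 and as α5α5α6, V as α1α1α2, VIII as α1 homotrimer, XII and XVI. Of the 13 heterotrimers, 6 were complete in 2H-11 and 5 in SVEC4-10.

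The trimers complete in 2H-11 and not in SVEC4-10 were V as α1α2α3, VI as α1α2α3, VII and XVIII. For type VI, the scarcest chain in 2H-11 was Col6a2 at 5.12 CPM or more, while Col6a3 had no read in SVEC4-10; these are reads, not divided by length. For V as α1α2α3 and for VII it rested on a small margin: Col5a3 reached 1 CPM in 2 of the 3 SVEC4-10 libraries, and without replicate 2 that trimer was complete there. At 0.5 CPM both V as α1α2α3 and VII were complete in SVEC4-10, and VI and XVIII were still incomplete; with 1 count or more asked of each thinned library, XVIII was complete there too and VI was not. The trimers complete in SVEC4-10 and not in 2H-11 were the α2 homotrimer and the mixed form of type VIII, for want of Col8a2, and XX, whose chain lay between 0.687 and 0.974 CPM in 2H-11 and between 1.10 and 1.64 CPM in SVEC4-10. The call on XX also rested on the cut: it was complete in 2H-11 at 0.5 CPM, and at 1 CPM it was no longer complete in SVEC4-10 on thinned libraries. The order of the lines in the number of complete trimers turned with the cut, from 11 in 2H-11 against 6 at 5 CPM to 15 against 15 at 0.5 CPM and 15 against 16 at 1 count or more in thinned libraries. The kidney-type IV trimer α3α4α5, type IX and the cartilage type XI trimer were complete in neither line. Col11a1 was present in 2H-11 without Col11a2 and Col2a1; hybrid trimers of type V and XI chains are known, and Col5a1 and Col5a2 were present.

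**Figure D4:**
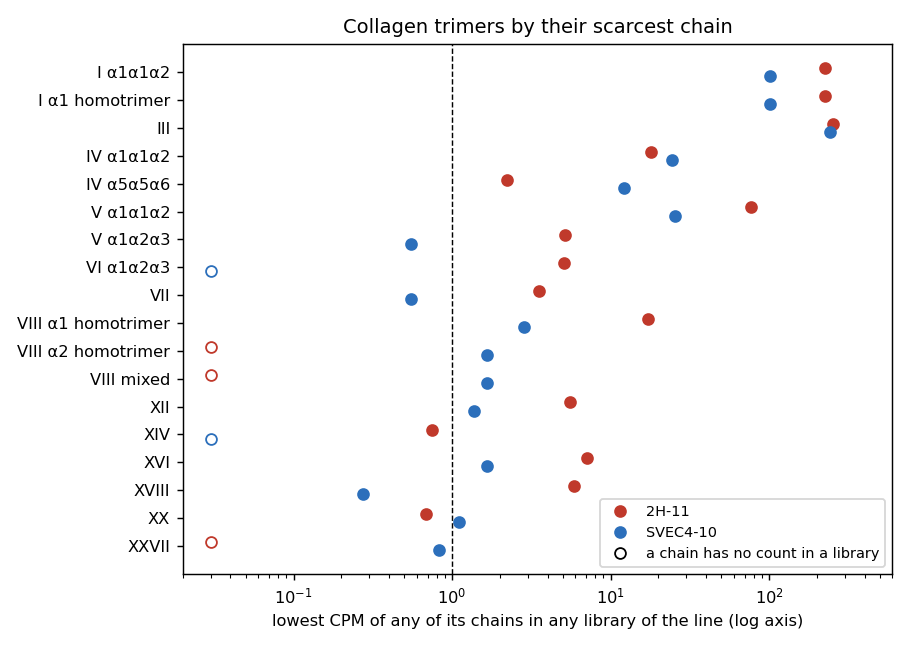
For each collagen trimer whose chains all had counts in every library of at least 1 line, the lowest CPM of any of its chains in any library of 2H-11 (red) and SVEC4-10 (blue), on a log axis; open circles mean that a chain had no count in a library. Points right of the dashed line at 1 CPM are complete. Type VI lies at 5.12 CPM in 2H-11 and has no point above 0 in SVEC4-10.

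Partner chains were then compared within each library. Scaling, and a length factor that is equal in all libraries, cancel in the difference between the lines. A length bias that differs between libraries would not cancel and was not tested for these ratios. The 6 planned ratios of read counts whose chains were both tested are given, and with 3 libraries against 3 the exact permutation test (2-sided) cannot go below 0.10. Col5a1 over Col5a2 was 0.203, 0.289 and 0.352 in 2H-11 and 0.0866, 0.0779 and 0.103 in SVEC4-10. The ratio was 3.09-fold higher in 2H-11 without overlap (log2 difference 1.63, exact permutation p = 0.1, adjusted over the 6 ratios 0.12). Per kilobase it was 0.1599 to 0.278 against 0.0614 to 0.0810. Col5a3 over Col5a1 was 0.0947, 0.0822 and 0.0511 against 0.0262, 0.0217 and 0.0311, again apart (log2 difference 1.36, exact permutation p = 0.1, adjusted 0.12), and per kilobase 0.0702 to 0.130 against 0.0299 to 0.0427. In reads, α2 thus stood in greater excess over α1 in every SVEC4-10 library than in any of 2H-11.

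Col1a1 over Col1a2, chains that the type I heterotrimer uses in a ratio of 2 to 1, was 0.434, 0.455 and 0.586 in reads in 2H-11 and 0.533, 0.706 and 1.24 in SVEC4-10. The lines overlapped (log2 difference -0.67, exact permutation p = 0.2), and divided by transcript length the ratios were 0.392 to 0.528 and 0.481 to 1.12. Col4a1 over Col4a2 was 3.27, 2.18 and 1.79 against 4.01, 3.99 and 3.27. The lowest SVEC4-10 value lay just above the highest of 2H-11 (log2 difference -0.68, exact permutation p = 0.1, adjusted 0.12), and per kilobase the ranges were 1.74 to 3.19 and 3.19 to 3.91.

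In type VI, Col6a1 over Col6a2 was 4.50, 5.33 and 3.44 in 2H-11 and 3.18, 2.80 and 2.97 in SVEC4-10 (log2 difference 0.53, exact permutation p = 0.1, adjusted 0.12). These groups were apart by a small margin, at 4.12 to 6.39 against 3.35 to 3.81 per kilobase. Col6a3 over Col6a1 was 2.01, 2.15 and 1.76 in 2H-11, or 0.814, 0.873 and 0.714 per kilobase, and 0 in SVEC4-10 (exact permutation p = 0.1, adjusted 0.12). Col4a5 over Col4a6, a ratio added after the values were seen and given without a test, was 13.3, 10.7 and 8 against 2.54, 4.11 and 2.43, or 8.14 to 13.5 against 2.47 to 4.18 per kilobase.

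**Figure D5:**
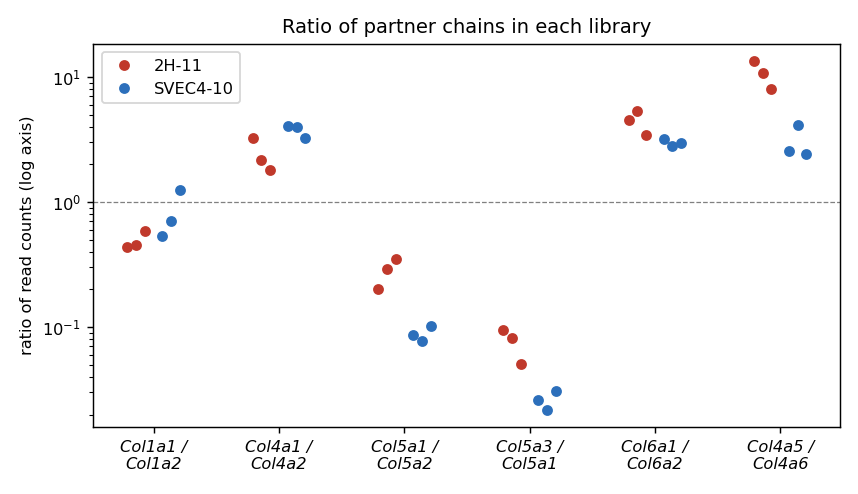
Ratio of read counts of partner chains in each library on a log axis, 2H-11 in red and SVEC4-10 in blue, 1 point per library. Col5a1 over Col5a2 is 0.203 to 0.352 in 2H-11 and 0.0779 to 0.103 in SVEC4-10, and Col1a1 over Col1a2 overlaps between the lines.

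Collagen chains are hydroxylated and folded in the endoplasmic reticulum, exported, trimmed of their propeptides and cross-linked outside the cell, and a list of 48 genes for these steps, of which 47 were matched by symbol, was examined alongside. Of 36 with enough counts 14 were higher in 2H-11 and 5 lower, and their median log2 fold change was 0.39. Of all genes tested 20.1% were higher and 16.2% lower, and of those with Ensembl identifiers, as these genes have, 13.0% and 18.8%. The pathway counts and their median are a description. A gene near 0 in a line passes the count filter only through the other line, and the list was chosen with earlier results known. The 4 tested genes for propeptide removal were all higher, namely Pcolce, Bmp1, Pcolce2 and Adamts2. Pcolce, an enhancer of the C-propeptide protease, was at 801, 693 and 642 CPM in 2H-11 and 290.3, 193.5 and 194 CPM in SVEC4-10 (log2 1.57, SE 0.17, adjusted p = 9.43e-07). Bmp1, that protease, was at 45.4, 50.7 and 51.5 CPM against 12.4, 6.61 and 17.2 CPM (log2 1.87, SE 0.26, adjusted p = 1.58e-05). Neither gene overlapped between the lines.

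Of the 5 lysyl oxidases, which start the cross-links of collagen and elastin, 3 were higher and 0 lower. The shares were 20.1% and 16.2% among all genes tested, and 13.0% and 18.8% among those with Ensembl identifiers. These counts too are a description, and Loxl4 passed the count filter only through 2H-11. Loxl1 was at 49.9, 42.4 and 59.6 CPM in 2H-11 and 0.234, 1.10 and 0.476 CPM in SVEC4-10, 86.0-fold higher (log2 6.43, SE 0.37, adjusted p = 1.73e-10). Loxl4 was at 22.1, 19.7 and 13.7 CPM and had no count in SVEC4-10, which is at least 152.6-fold higher, or 48.9-fold without SVEC4-10 replicate 3 (adjusted p = 6.91e-09). Lox itself averaged 98.5 ± 11.3 against 109 ± 5.84 CPM, with overlap, and did not pass (adjusted p = 0.305).

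Of 16 folding and hydroxylation genes tested, 4 were higher and 3 lower. Among all genes tested the shares were 20.1% and 16.2%, and among those with Ensembl identifiers 13.0% and 18.8%, so these counts are a description. Plod1, a lysyl hydroxylase, was at 105, 80.1 and 72.3 CPM in 2H-11 and 26.9, 20.1 and 22.7 CPM in SVEC4-10 (log2 1.79, SE 0.20, adjusted p = 1.4e-06). Of the catalytic subunits of prolyl 4-hydroxylase, 1 was higher and 2 were lower. P4ha2 was higher, at 157, 138 and 123 CPM against 54.5, 46.3 and 44.5 CPM (log2 1.43, adjusted p = 4.21e-06), and P4ha1, named after its values were seen, was lower, at 89.3, 80.6 and 62.6 CPM against 174, 136 and 127 CPM (log2 -1.002, adjusted p = 0.000291). P4ha3, also named with its values in view, was at 2.05, 1.22 and 1.72 CPM against 4.91, 4.69 and 3.33 CPM (log2 -1.39, adjusted p = 0.0103), and did not pass without 2H-11 replicate 2 (adjusted p = 0.0642). Serpinh1, the collagen chaperone HSP47, averaged 844 ± 117 against 1058 ± 244 CPM and did not pass (log2 -0.41, adjusted p = 0.0623). It passed as lower in 6 of 17 alternative fits: with the replicate block (log2 -0.41, adjusted p = 0.0465), with no filter, on thinned libraries, and without 2H-11 replicate 1 (adjusted p = 0.0252), SVEC4-10 replicate 2 (adjusted p = 0.0425) or SVEC4-10 replicate 3 (adjusted p = 0.0304).

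Of 4 export genes tested, Sec24d, a coat subunit of the vesicles that carry procollagen, was higher, at 52.7, 42.6 and 40.5 CPM against 21.7, 21.5 and 22.4 CPM (log2 0.95, adjusted p = 0.00111). Mia3, the TANGO1 receptor that loads procollagen, averaged 32.3 ± 8.98 against 20.7 ± 2.26 CPM and did not pass (adjusted p = 0.0812), though it did in 5 alternative fits, among them that without 2H-11 replicate 3 (adjusted p = 0.0193). Among receptors, Mrc2, which takes up collagen fragments, was higher at 10.8, 10.5 and 15.96 CPM against 1.87, 1.65 and 2.02 CPM (log2 2.62, adjusted p = 5.89e-06), and Itga1, the integrin chain that binds type IV collagen, was lower at 3.16, 1.95 and 2.23 CPM against 14.02, 8.54 and 10.6 CPM (log2 -2.24, adjusted p = 2.75e-05). Of 4 regulators listed, the 2 tested, Runx2 (4.92 ± 0.882 and 2.50 ± 0.407 CPM, adjusted p = 0.0837) and Creb3l1 (13.5 ± 3.86 and 11.9 ± 4.35 CPM, adjusted p = 0.905), did not pass. Runx2 did in fits on Ensembl identifiers alone (adjusted p = 0.0407) and with a length trend removed (adjusted p = 0.022). Larp6 had 11, 8 and 18 reads in 2H-11 and 1, 0 and 0 in SVEC4-10, too few for the test. It was called higher with no filter, with DESeq2, and without 2H-11 replicate 2, SVEC4-10 replicate 1 or SVEC4-10 replicate 2. Sp7 had no count.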

How the data were processed

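Direct RNA reads of 6 libraries (3 of 2H-11, 3 of SVEC4-10) were analysed from 1 table in which the authors deposited raw read counts for each gene. The authors also deposited CPM values, which equal each count over its library total, per 1000000. Per the labels, libraries were made with the kit SQK-RNA002 from Trizol RNA; per the submitters' processing notes, mm10 and GRCm38 were the genome builds. For the aligner, the counting tool, its use of strand and any filter, these sources give no name. Comparison columns by the authors were not used. A further 13 lines without a gene name were dropped.

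Members were the genes whose symbol fits the pattern Col, number, a, number. They, the trimers and the lists were chosen with earlier results of these data known. The counts of all genes were fitted in R 4.3.3 by edgeR 4.0.16 (filterByExpr with a minimum count of 10 and a minimum total of 15, TMM, quasi-likelihood test, line as the only term), and p-values were Benjamini-Hochberg adjusted over all genes tested, with a threshold of 0.05. The fit was tested on simulated data. Chains that passed this filter with a mean of 1 CPM or more in a line were named with all their values, and so were the 2 pathway genes per group with the smallest p. Chains under that level, and the pathway genes Pcolce2, Adamts2, P4ha1, P4ha3, Lox, Serpinh1, Larp6 and Sp7, are given in addition and were picked with their values in view. Gene coordinates and the longest transcript length came from GENCODE M21, promoter letters from RefSeq (GRCm38.p6). Limits that 0 counts allow were taken as 3 counts over a line's summed total, and intervals (95%, exact) cover counting error only. Alternatives used limma 3.58.1 and DESeq2 1.42.0. Figures were made with Python 3.11.15 and matplotlib 3.10.9.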

Additional observations from a re-analysis of the deposited data

How the results depend on the processing

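The fit was repeated with DESeq2, with limma-voom, with a replicate block, under 2 other sets of size factors or none, with every gene kept or at least 20 counts asked of 3 libraries, on Ensembl identifiers alone, with a trend on transcript length removed, on thinned libraries and without each library. Chains called higher numbered 8 to 11 and chains called lower 5 to 10 over these 17 fits; without a filter 10 chains were lower, Col5a2, Col8a2, Col11a2 and Col27a1 being added. Of 321 refits of named chains 308 kept direction and call, 9 lost it (8 of Col4a2, 1 of Col1a1), 4 gained it (3 of Col5a2, 1 of Col3a1) and 0 reversed. With each library left out in turn, chains higher were 9 to 10, chains lower 6 to 8, and complete trimers 13 to 14 in 2H-11 and 12 to 14 in SVEC4-10. Complete trimers in 2H-11 and SVEC4-10 were 11 and 6 at 5 CPM, 15 and 15 at 0.5 CPM, 15 and 16 at 1 count or more in thinned libraries, and 13 and 11 at 1 CPM in thinned libraries. Pathway calls, refitted as an addition after seeing the data, were 12 to 18 higher and 4 to 6 lower. Creb3l1, which did not pass, changed sign without a filter (log2 -0.026), with limma-voom (-0.002) and in some fits without a library (range over these 6, -0.215 to 0.267).

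The labels do not say whether equal replicate numbers share a batch. Deviations from the line means of equally numbered libraries correlated at -0.018, 0.0505 and -0.00256 across genes. Those of unequally numbered libraries correlated at -0.078 to 0.071. A shared batch that touches few genes would not show in such correlations. With the replicate block 10 chains were higher, 6 lower and 4461 genes called, and the block changed no chain call; 12 pathway genes were higher and 6 lower, Serpinh1 being added. Depth limits the chains with few reads, above all in SVEC4-10 replicate 2, where 0 counts allow up to 0.827 CPM.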
